A study of Homo sapiens with 4 samples.

Results

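The nuclear-encoded subunits of the mitochondrial respiratory chain were followed in RPE1 cells after siRNA against SAF-A. The set held 88 protein-coding genes out of 25027 gene symbols in the tables, chosen by name alone: NDUFA, NDUFB, NDUFC, NDUFS and NDUFV for complex I, SDHA to SDHD for complex II, UQCR for complex III, COX4 to COX8 for complex IV and ATP5 for complex V. Assembly factors, pseudogenes and noncoding genes of the same name pattern were left out. Complex I supplied 38 genes, complex II 4, complex III 9, complex IV 17 and complex V 20. Of the 88, 81 averaged 1 FPKM or more across the 4 libraries and entered the comparisons.

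RPE1 is an hTERT-immortalised line of human retinal pigment epithelial cells. SAF-A, or hnRNP U, is encoded by HNRNPU and binds RNA and chromatin in the nucleus. Cells received 10 nM Stealth siRNA, either a control siRNA or one against SAF-A, and were collected after 24 h or 48 h, giving 4 groups (control and SAF-A at each time) with 1 library each. The groups share the cell line, the transfection and the dose. Total RNA depleted of ribosomal RNA was sequenced as 50-base single-end reads. With 1 library per group there is no replicate spread, so no p-value is given. A gene was called when log2(FPKM + 1) differed by at least 1, that is 2-fold, and the error given is the deposited 95% interval within a library.

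The respiratory chain passes electrons from NADH (complex I) and succinate (complex II) through complex III to oxygen at complex IV. Complexes I, III and IV pump protons as they do so, and complex V, the ATP synthase, uses the proton gradient to make ATP. All but complex II are built from both nuclear and mitochondrial gene products. Many subunits are small proteins with short mRNAs, and several have many processed pseudogenes, which bears on counting short reads. In the tables, FPKM is a fragment count scaled to transcript length and to the mapped reads of the library. Genes of different length can thus be set side by side, less surely for short transcripts such as those of ATP5ME (310 and 365 nt).

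The targeted gene came first as a check of the labels. HNRNPU stood at 91.2 FPKM in control 24 h and 10.4 in SAF-A 24 h, which is 11.4% of control (bounds 9.98 to 13.0). At 48 h it stood at 84.6 and 9.24 FPKM, 10.9% of control (bounds 7.92 to 14.5). The SAF-A 48 h library stood apart in depth: 1216740 mapped reads were derived for it, against 28083822 to 30701282 for the others. The tested members had a median of 76.3 estimated reads there (2.51 to 956) and medians of 1228 to 1496 elsewhere. Rank correlations of the members' levels, over 81 genes, were 0.989 to 0.991 among the deep libraries and 0.798 to 0.824 between each of these and SAF-A 48 h. Every comparison that uses SAF-A 48 h rests on that library, and the 24 h comparison and that between the controls do not. Among cell markers, RPE65 was at 0 in all 4 libraries, and of 7 pigment epithelium markers 3 were under 0.1 FPKM in each deep library and 4 in SAF-A 48 h. The depth of SAF-A 48 h cannot show levels that low. In control and SAF-A at 24 h, then control and SAF-A at 48 h, MITF stood at 8.90, 5.56, 9.01 and 4.23 FPKM. OTX2, also of this list, stood at 2.60, 2.40, 3.77 and 2.16 FPKM in the same order. The 5 markers of immune, endothelial, liver and muscle cells summed to 0.0961 to 0.347 FPKM. In such bulk RNA, fewer cells of a type and less RNA per cell cannot be told apart.

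As sequence context, promoter sequences were taken from RefSeq on GRCh38.p14. Of the 88 genes, 71 had an entry, and the first listed window of each gene (250 bases before to 50 after the start of transcription) was searched on both strands for 3 short motifs of regulators of respiratory genes. GCGCATG, 1 arm of the palindromic NRF1 site, was found in 14 of 71 windows (19.7%), against 4.67% of all 27305 genes with a window and 8.14% of the 8539 tested protein-coding genes outside the set. CCGGAAG, the core of the ETS family to which GABPA belongs, was found in 20 (28.2%), against 10.7% and 21.5%. AAGATGG, a core of YY1, was found in 16 (22.5%), against 6.06% and 7.99%. At least 1 of the 3 was present in 38 members (53.5%), against 19.3% of all and 32.9% of tested protein-coding genes. The full NRF1 site, which contains that arm in both directions, was found in 4 (5.63%), against 1.36% and 2.51%. A match of letters is a description of the sequence and no measure of binding.

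The 150 bases before the start are shown for 4 members that stood at the ends of the 48 h comparison described further on, so that genes at opposite ends can be compared. These are NDUFA13 (chr19:19516075-19516224, plus strand), ATP5ME (chr4:674277-674426, minus strand), SDHD (chr11:112086723-112086872, plus strand) and ATP5MC1 (chr17:48892637-48892786, plus strand). Each is written 5′ to 3′ along the gene, with matches to the 3 short motifs in capitals, on either strand.
NDUFA13: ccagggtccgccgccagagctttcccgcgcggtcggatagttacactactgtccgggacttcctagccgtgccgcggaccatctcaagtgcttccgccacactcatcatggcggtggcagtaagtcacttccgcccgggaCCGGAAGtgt
ATP5ME: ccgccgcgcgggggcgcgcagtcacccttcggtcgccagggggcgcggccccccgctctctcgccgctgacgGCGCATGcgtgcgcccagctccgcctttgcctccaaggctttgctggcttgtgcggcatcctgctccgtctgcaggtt
SDHD: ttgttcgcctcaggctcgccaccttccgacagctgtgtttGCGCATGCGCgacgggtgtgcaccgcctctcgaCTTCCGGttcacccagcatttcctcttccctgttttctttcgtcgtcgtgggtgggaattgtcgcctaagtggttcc
ATP5MC1: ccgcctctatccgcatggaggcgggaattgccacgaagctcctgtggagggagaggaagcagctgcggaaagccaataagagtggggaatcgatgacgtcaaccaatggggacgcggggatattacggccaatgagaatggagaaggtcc
The capitals mark an ETS core in NDUFA13, an NRF1 arm in ATP5ME, and overlapping NRF1 arms on both strands beside an ETS core in SDHD. In ATP5MC1 none of these letters occur in the stretch shown. In the whole windows of NDUFB2 and NDUFA11, called higher at 48 h, and of ATP5MC1, NDUFA5 and UQCRFS1, called lower, none of the 3 occurred. The whole window of ATP5ME, called higher, held all 3. Where a gene has several windows, the first listed need not be that of the transcripts measured. The NRF1 arm was in 8 of 28 members called higher at 48 h and in 6 of 39 tested members that were not, the ETS core in 7 of 28 and 13 of 39, and the YY1 core in 7 of 28 and 9 of 39.

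Respiratory chain transcripts were abundant in all libraries. Summed over the 88 genes, the level was 6662 FPKM in control 24 h, 7566 in SAF-A 24 h, 7637 in control 48 h and 14917 in SAF-A 48 h. As a share of the FPKM of all protein-coding genes this was 2.04%, 2.29%, 2.30% and 3.63%. The median tested member stood at 60.9, 69.3, 71.9 and 119 FPKM in the same order. Complexes IV and V held the higher levels per gene and complex II the lowest. In control 24 h the median tested gene of complex I stood at 48.0 FPKM, of complex II at 37.5, of complex III at 56.5, of complex IV at 131 and of complex V at 118.

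**Figure D1:**
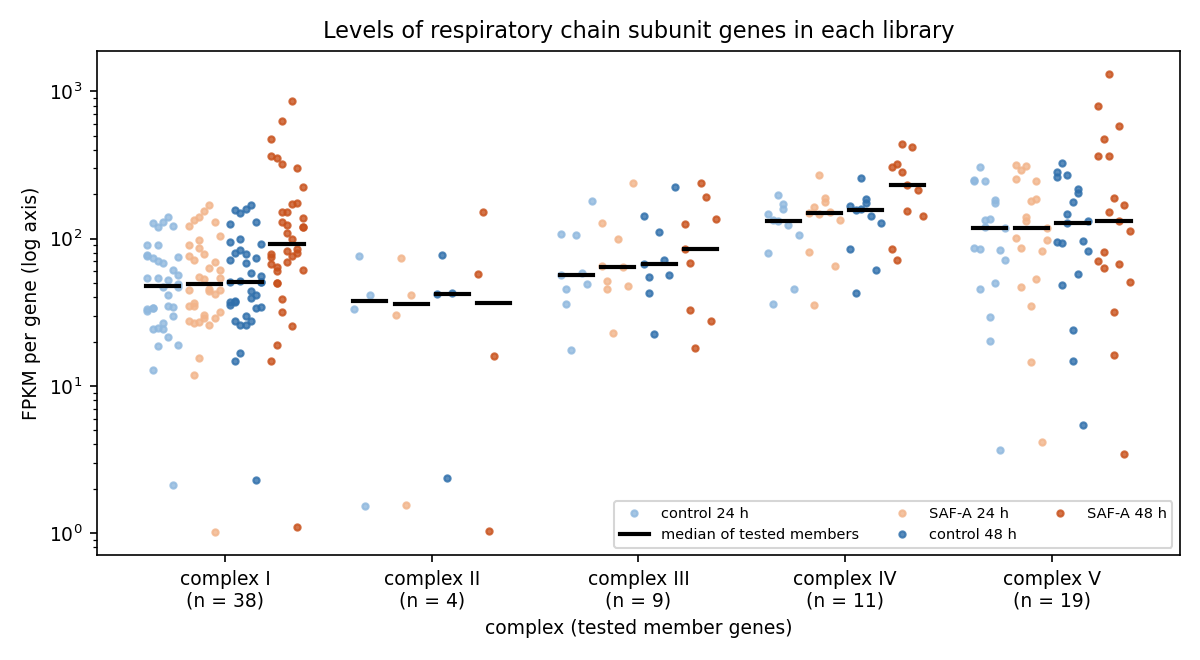
FPKM of each tested member gene (points, log axis) by complex and library, with a black bar at the median of the tested members. The levels of the 3 deep libraries overlap closely, and complexes I and IV sit higher in SAF-A 48 h, where the medians were 92.1 and 231 FPKM against 51.0 and 156 in control 48 h.

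Within complexes the range was wide. In complex I the highest mean belonged to NDUFA13 (also known as GRIM-19), an accessory subunit, at 141, 169, 170 and 866 FPKM in the 4 libraries (control and SAF-A at 24 h, then control and SAF-A at 48 h, the order used from here on). The lowest was NDUFC2-KCTD14, a readthrough of NDUFC2 into its neighbour, at 2.11, 1.01, 2.30 and 1.11 FPKM. In complex III the hinge protein UQCRH led with 180, 239, 222 and 136 FPKM, and UQCRB was lowest with 17.6, 22.7, 22.7 and 18 FPKM.
The subunit with the highest mean in complex IV was COX7C, at 197, 270, 256 and 281 FPKM, and the lowest among those tested was COX5A, at 36.0, 35.7, 42.5 and 71.3 FPKM. In complex V the mean was highest for ATP5ME (subunit e, which helps the enzyme form dimers) and lowest for ATP5MGL, at 3.69, 4.17, 5.40 and 3.45 FPKM. SDHC, the large membrane anchor of complex II, was listed at only 1.53, 1.56, 2.35 and 1.04 FPKM while SDHB, its iron-sulfur partner, stood at 76.2, 74.1, 77.2 and 152 FPKM.

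The paired forms of complex IV were unequal. Some subunits of this complex come in paired forms, of which some are typical of heart and skeletal muscle, lung or testis. COX4I2, COX6A2, COX7B2 and COX8C were listed at 0 in every library, and COX6B2 and COX7A1 did not exceed 0.0416 and 0.175 FPKM. The other gene left untested was the readthrough ATP5MF-PTCD1, at 0.186 FPKM or less. Counterparts stood far higher: COX4I1 stood at 147, 148, 166 and 309 FPKM, COX6A1 at 158, 179, 173 and 154, and COX8A at 173, 189, 184 and 231. COX7A2 (106, 134, 127 and 142 FPKM) and COX7A2L (79.9, 81.3, 84.8 and 84.9), the latter a factor of supercomplex assembly, were present as well. The depth of SAF-A 48 h cannot show such low levels, since 3 reads on a transcript of 600 nt correspond there to 6.17 FPKM, against 0.245 to 0.267 FPKM in the others. COXFA4, earlier counted as NDUFA4, falls outside the name rule and stood at 23.1, 30.2, 27.8 and 32.4 FPKM.

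The first comparison asked how the subunits stood 24 h after SAF-A siRNA, when HNRNPU was already low. No member reached 2-fold in either direction (0 of 81), where 1.83% of all 11631 tested genes were called higher and 1.25% lower. Of 3495 protein-coding genes in the central length range of the members (505 to 2389 nt), 0.229% were higher and 0.0858% lower. The absence of calls among the members thus lay near the share of genes of similar length. The differences were small and mostly positive: 63 members were above and 18 below control, where 36.5% and 62.9% of all tested genes were, with a median of 0.14 on the log2 scale, against -0.06 over all tested genes. The sign of this median depends on the scale: with FPKM rescaled to TPM over all rows it was -0.035, against -0.22 over all tested genes. The deposited intervals were apart for 33 members, 28 higher and 5 lower. Over all tested genes intervals were apart and higher in 8.98%, and apart and lower in 17.5%. The lower 5 were NDUFC2-KCTD14, NDUFV1, SDHA, UQCRC1 and ATP5F1B, all but the readthrough being core or catalytic subunits.
Within complex I, the 7 core subunits, most of which carry flavin or iron-sulfur clusters or bind ubiquinone, had a median of -0.03 with 2 positive and 5 negative, and the 31 accessory subunits a median of 0.17 with 27 positive and 4 negative; the difference between these groups was not tested. The medians were -0.02 for complex II, 0.21 for complex III, 0.18 for complex IV and 0.11 for complex V.

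NDUFA3, a small accessory subunit in the membrane arm of complex I, was the member furthest above control at 24 h and the only one past 1.5-fold upwards. It stood at 18.9, 31.8, 34.1 and 120 FPKM, with 84.2 and 155 estimated reads in control 24 h and SAF-A 24 h. Control 24 h was thus the lowest of the 4, and both other deep libraries lay close together above it. Its log2 change was 0.72 at 24 h (0.19 to 1.28 from the interval bounds), and its log2 change between the controls was 0.82. NDUFC2-KCTD14 was the only member past 1.5-fold downwards at 24 h, with a log2 change of -0.63, and it shares up to 641 exonic bases with NDUFC2, so its reads are uncertain. At 1.5-fold, 3.53% of all tested genes were higher and 2.27% lower.

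Differences between the control libraries were of a similar size. Between control 48 h and control 24 h no member reached 2-fold (0 of 81), against 1.79% of tested genes higher and 1.36% lower. For protein-coding genes in the central length range of the members these shares were 0.429% and 0.343%. The median was 0.19, against 0.03 over all tested genes, with 73 members above and 8 below (55.8% and 43.6% of all tested genes). Intervals were apart for 37 members, all of them higher, where 18.3% of all tested genes were apart and higher and 12.7% apart and lower. At 1.5-fold only NDUFA3 was higher and none was lower, where 4.26% and 3.39% of tested genes were. The 24 h comparison and this one share control 24 h, so a low level in that library enters both.

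The second siRNA comparison, at 48 h, gave wider differences in both directions. Of 81 members, 31 were called higher and 4 lower, where 14.2% of all tested genes were called higher and 20.1% lower. The median was 0.73, against -0.12 over all tested genes, with 62 positive and 19 negative (44.6% and 54.1% of all tested genes). For protein-coding genes in the central length range of the members (505 to 2389 nt, 3495 genes) 22.1% were higher and 16.8% lower, with a median of 0.15. Intervals were apart for 53 members, 45 higher and 8 lower, where 21.9% of all tested genes were apart and higher and 26.6% apart and lower. Of the called members, 30 of the 31 higher and all 4 lower had intervals apart (12.5% and 16.6% of all tested genes), and the exception was ATP5F1D. At 1.5-fold, 43 were higher and 10 lower (24.7% and 32.5% of all tested genes). All of these rest on SAF-A 48 h, the library with 1216740 reads.

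**Figure D2:**
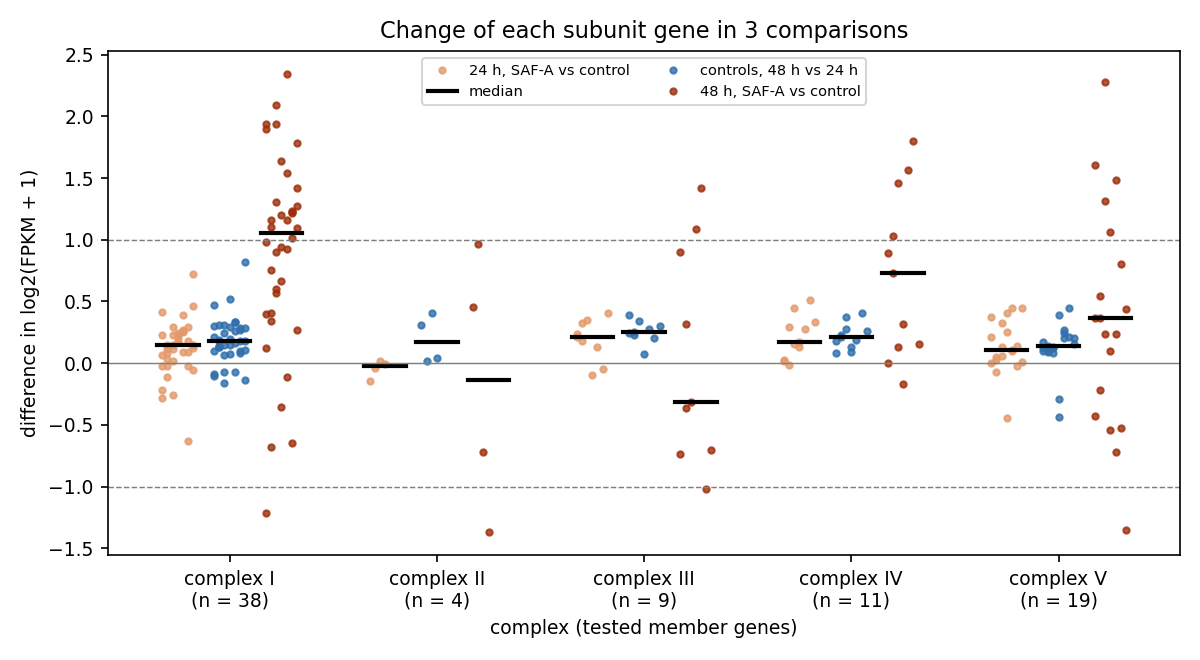
Difference in log2(FPKM + 1) of each tested member gene (points) by complex, for SAF-A against control at 24 h, control 48 h against control 24 h, and SAF-A against control at 48 h, with black bars at the medians and dashed lines at 2-fold. The points of the first 2 comparisons lie between the dashed lines, and those of the 48 h comparison run from -1.37 to 2.35.

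Complex I held most of the higher calls at 48 h. Of its 38 tested genes, 20 were called higher (52.6%) and 1 lower, with a median of 1.05. Accessory subunits accounted for 18 of the 20 (median 1.10 over 31 genes), and the core subunits for 2 of 7 (median 0.41).
NDUFA13 had the largest difference, with 360 estimated reads in SAF-A 48 h. Its 866 FPKM (773 to 958) compared with 170 in control 48 h (161 to 178), a log2 change of 2.35 (2.11 to 2.56). The other libraries lay at 141 and 169 FPKM, so SAF-A 48 h was alone above them.

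Other accessory subunits of complex I were also called at 48 h. NDUFB2, of the membrane arm, stood at 119, 140, 148 and 634 FPKM, with a log2 change of 2.09 at 48 h (1.77 to 2.38). NDUFA11, also of the membrane arm, stood at 70.4, 86.6, 83.4 and 322 FPKM, a log2 change of 1.94. NDUFB7 stood at 76.7, 90.0, 94.8 and 365 FPKM, a log2 change of 1.93. In each of these the 3 deep libraries lay within a narrow range and SAF-A 48 h lay above it, with intervals that did not overlap those of control 48 h.
NDUFA1 stood at 91.2, 122, 127 and 475 FPKM, a log2 change of 1.90, and its intervals were also apart at 24 h and between the controls. For NDUFA3 the log2 change at 48 h was 1.78 (0.78 to 2.55) on only 23.2 estimated reads. NDUFC1 stood at 24.5, 28.8, 25.9 and 82.7 FPKM, a log2 change of 1.64 (0.86 to 2.52). The single lower call in complex I was NDUFA5, of the matrix arm, at 33.1, 34.7, 35.5 and 14.7 FPKM, a log2 change of -1.22 (-2.09 to -0.21) on 22.1 reads. NDUFA5 has 12 named pseudogenes in RefSeq.

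Among the core subunits of complex I, NDUFS7 and NDUFS8, which hold iron-sulfur clusters near the quinone site, were called higher at 48 h. NDUFS7 stood at 29.7, 29.1, 33.8 and 80.5 FPKM, a log2 change of 1.23, and NDUFS8 at 56.3, 61.5, 51.1 and 138 FPKM, a log2 change of 1.42. Others were closer to control: NDUFV1, the flavoprotein that binds NADH, had a log2 change of 0.40, NDUFS3 one of 0.41 and NDUFS1 one of 0.27. NDUFV2, the partner of NDUFV1, was lower with a log2 change of -0.68, at 73.3, 72.1, 80.5 and 49.8 FPKM, and its intervals were apart.

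The 4 genes of complex II did not move together. SDHA, the flavoprotein that oxidises succinate, stood at 33.5, 30.3, 41.8 and 57.5 FPKM, a log2 change of 0.45 at 48 h. SDHB had a log2 change of 0.97, under the threshold, with intervals apart. SDHD, the small membrane anchor, was the member furthest below control at 48 h: 41.5, 41.3, 42.7 and 15.9 FPKM, a log2 change of -1.37 (-2.79 to -0.26) on 20.6 estimated reads. SDHC had a log2 change of -0.72 on 3.0 reads, and its interval in SAF-A 48 h (0 to 5.65 FPKM) covered that of control 48 h (1.98 to 2.86). The median of the 4 was -0.13, with 0 higher and 1 lower call.

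Complex III split into genes above and below control. UQCRC1 and UQCRC2, the large core proteins that face the matrix, were called higher at 48 h: UQCRC1 stood at 106, 99.1, 111 and 238 FPKM (log2 change 1.09) and UQCRC2 at 58.6, 64.1, 71.3 and 192 FPKM (1.42), on 410 and 345 estimated reads. UQCRFS1, the Rieske iron-sulfur protein, was called lower, at 49.2, 47.6, 56.7 and 27.4 FPKM, a log2 change of -1.02 (-1.68 to -0.54).
The 9 genes had a median of -0.32, with 2 higher (22.2%, near the 22.1% of protein-coding genes of similar length) and 1 lower. By sign 4 were positive and 5 negative (44.6% and 54.1% of all tested genes). Intervals were apart for 3 higher and 3 lower (21.9% and 26.6% of all tested genes). The difference from complex I was not tested. UQCRH and its near-identical copy UQCRHL had log2 changes of -0.70 and -0.74, and their short reads cannot be assigned with certainty. UQCRQ, at 36.1, 45.5, 42.5 and 32.7 FPKM, and UQCRB, which shares sequence with the pseudogene UQCRBP1 (30.5, 37.8, 41.2 and 24.9 FPKM), had log2 changes of -0.37 and -0.32 with overlapping intervals.

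Complex IV had 4 higher calls and none lower among 11 genes at 48 h (36.4% higher), with a median of 0.73. COX6C stood at 45.8, 65.6, 61.1 and 215 FPKM, a log2 change of 1.80 (1.49 to 2.08), and it was the second member by its smaller positive change over both times, with 0.51 at 24 h. COX6C has 18 named pseudogenes, the most of any member. COX6B1, which faces the intermembrane space, stood at 124, 151, 142 and 422 FPKM (log2 change 1.56), COX5B at 131, 146, 159 and 437 (1.46) and COX7B at 135, 165, 156 and 320 (1.03). In these genes SAF-A 48 h lay above all other libraries.
COX4I1 and COX5A had log2 changes of 0.89 and 0.73 with intervals apart. The others lay near control, from -0.17 for COX6A1 to 0.32 for COX8A.

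Complex V had 5 higher calls and 1 lower among 19 genes at 48 h (26.3% and 5.26%), with a median of 0.36. Its share of higher calls lay near the 22.1% of protein-coding genes of similar length. ATP5ME stood at 248, 310, 271 and 1318 FPKM, a log2 change of 2.28 (1.92 to 2.65). ATP5MK (subunit k, also called DAPIT) stood at 244, 318, 262 and 798 FPKM, a log2 change of 1.60, and the stalk subunit ATP5PO at 174, 186, 205 and 577 FPKM, a log2 change of 1.49. In the catalytic head, ATP5F1A and ATP5F1B had log2 changes of 0.36 and 0.55. ATP5F1C, of the central stalk, had one of 1.31. ATP5F1B, the catalytic beta subunit, stood at 306, 292, 327 and 478 FPKM on 956 reads in SAF-A 48 h, the largest read number of any member there.
ATP5F1D, a subunit of the central stalk, was called higher with a log2 change of 1.07 on 20.1 reads, but its intervals overlapped. The inhibitor ATP5IF1, which blocks ATP hydrolysis, stood at 83.6, 82.4, 96.9 and 170 FPKM, a log2 change of 0.80.

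The 3 genes that encode the same mature c-ring subunit differed. ATP5MC1 was called lower, at 118, 119, 131 and 50.8 FPKM, a log2 change of -1.35 (-2.24 to -0.67) on 23.2 reads. ATP5MC2 stood at 86.6, 100.5, 94.6 and 70.1 FPKM (log2 change -0.43), and ATP5MC3 at 45.5, 47.2, 48.5 and 62.9 FPKM (0.37). ATP5MC1 and ATP5MC2 have 8 and 5 named pseudogenes, and ATP5MC3 none. ATP5F1E (182, 248, 219 and 132 FPKM, log2 change -0.72) overlaps the readthrough SLMO2-ATP5E by up to 164 exonic bases, and that transcript was listed at 36.7, 35.5, 31.8 and 170 FPKM. The direction of ATP5F1E at 48 h is therefore uncertain.

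**Figure D3:**
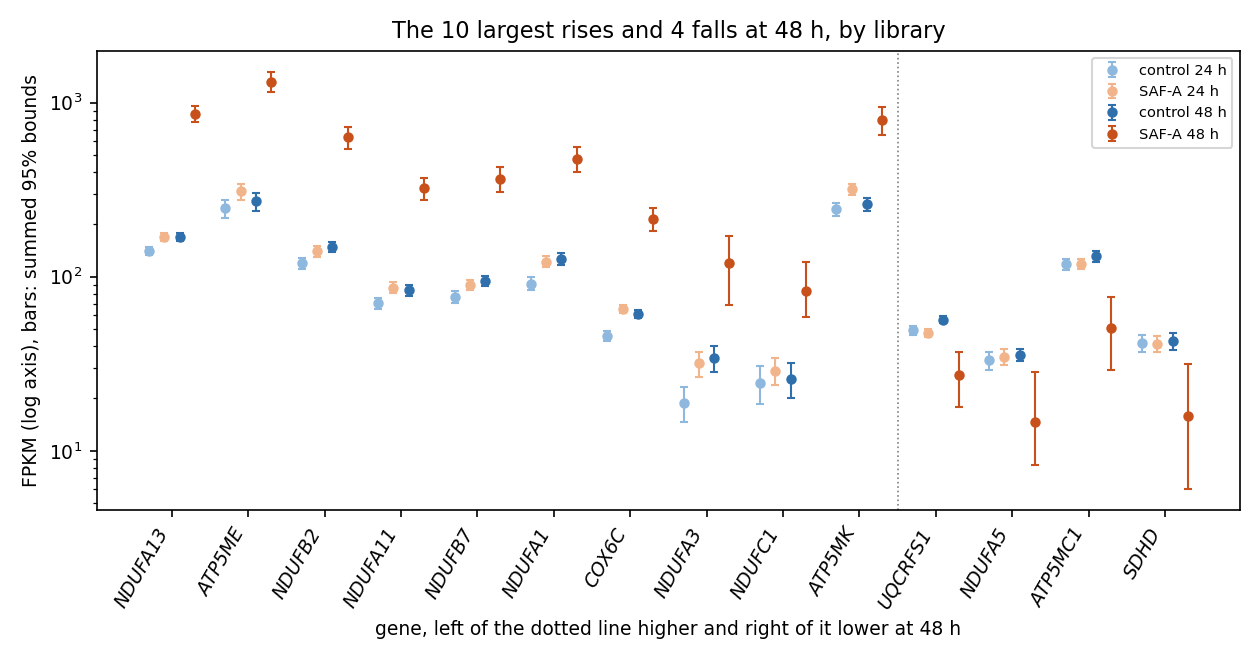
FPKM (log axis) of the 10 members with the largest rise and the 4 with the largest fall at 48 h, in each library, with bars for the summed deposited 95% bounds. SAF-A 48 h lies above the 3 deep libraries in the 10 genes on the left, up to 1318 FPKM for ATP5ME, and below them in the 4 on the right, down to 15.9 FPKM for SDHD and 14.7 for NDUFA5.

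Since no member reached 2-fold at 24 h, none could be called at both times, where 0.395% of all tested genes were higher and 0.533% lower at both. At 1.5-fold, NDUFA3 was higher and NDUFC2-KCTD14 lower at both, where 1.45% and 1.37% of tested genes were. By sign alone, 48 members were positive and 4 negative at both times, 15 were positive at 24 h and negative at 48 h, and 14 were the reverse. With 63 of 81 positive at 24 h and 62 at 48 h, many would share a sign even if the times were unrelated. These counts are thus no measure of agreement between the times, which was not tested. After NDUFA3 and COX6C, NDUFB1 came next among those positive at both (75.1, 104, 91.9 and 224 FPKM, log2 changes of 0.46 and 1.27). Among those negative at both, UQCRFS1 (-0.05 and -1.02) and NDUFV2 (-0.02 and -0.68) followed the readthrough. Between the SAF-A libraries, 48 h against 24 h, 36 members were called higher and 4 lower (15.1% and 17.8% of all tested genes), with a median of 0.91 against -0.02. At 1.5-fold 46 were higher and 7 lower (26.6% and 29.5%), and this comparison again uses SAF-A 48 h.

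Properties of the transcripts moved with the 48 h differences. The 31 members called higher had a median GC content of 51.7% and a median length of 700 nt for their main transcript, against 47.6% and 923 nt for the 46 between the thresholds and 44.8% and 1251 nt for the 4 called lower. With protein-coding genes split by GC content into 4 classes of equal size, member medians were 0.27 (9 genes), 0.34 (29), 0.80 (27) and 1.17 (16) from the lowest to the highest class. Over all protein-coding genes the medians of these classes were -0.15, -0.10, -0.10 and 0.02.
Members without a named pseudogene had a median of 0.78, with 13 of 32 called higher and 0 lower. Members with 1 to 3 had a median of 0.95 (12 higher and 1 lower of 26), and those with 4 or more one of 0.13 (6 higher and 3 lower of 23). Protein-coding genes with 4 or more had a median of -0.54 (424 genes, 10.1% higher and 30.9% lower), and those with none one of -0.04 (8362 genes, 15.0% higher and 16.2% lower). At 24 h the 3 classes of members had medians of 0.13, 0.12 and 0.18. VIM stood at 2145, 1845, 1586 and 3312 FPKM, so another abundant gene also differed in SAF-A 48 h. KRT18 was listed at 142, 124, 229 and 23.3 FPKM. Its deposited bounds in the deep libraries lay below its own values (0 to 12.0 FPKM in control 48 h). KRT18 has 68 named pseudogenes, and its direction at 48 h is uncertain. The part of depth, GC content, length, pseudogenes or cell state in the 48 h result was not tested.

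Transcript use within genes was compared through the shares of the RefSeq transcripts of each gene. For 36 members more than 1 transcript was listed and the gene reached 5 FPKM on each side; 1 of them shifted its shares by 0.3 or more at 24 h (9.29% of all such genes) and 12 at 48 h (38.6%). Between the controls 1 did (9.74%), and between the SAF-A libraries 10 did (38.4%). The share of members that shifted at 48 h was thus no higher than that of other genes. The 24 h shift was in NDUFC1, where NM_001184990 made up 42.2% of the gene in control 24 h and 81.9% in SAF-A 24 h. In control 48 h it made up 64.5%. NM_001184987 went from 39.4% to 0.038% at 24 h. These transcripts of 721 and 725 nt differ little in length, so the split of reads between them is uncertain. NDUFS5, whose transcripts of 567 and 571 nt differ little, shifted between the controls.
At 48 h NDUFB8, an accessory subunit, went from 23.2% to 97.6% for NM_005004, and NDUFS1 from 22.8% to 99.9% for NM_005006. NDUFV3 went from 11.3% to 81.9% for the short NM_001001503. In ATP5ME the noncoding NR_033743 made up 65.7%, 63.0%, 51.3% and 0% of the gene, so the coding NM_007100 stood at 85.0, 115, 132 and 1318 FPKM. SDHD also shifted, with NM_001276503 at 1.6% of the gene in control 48 h and 80.9% in SAF-A 48 h, on 16.4 reads. The others were ATP5F1D, ATP5MF, NDUFA5, NDUFB3, NDUFC1, NDUFS5 and UQCRB. In SAF-A 48 h the genes NDUFB8, NDUFS1 and ATP5ME had 231, 243 and 270 estimated reads, which were divided among transcripts that can share bases.

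**Figure D4:**
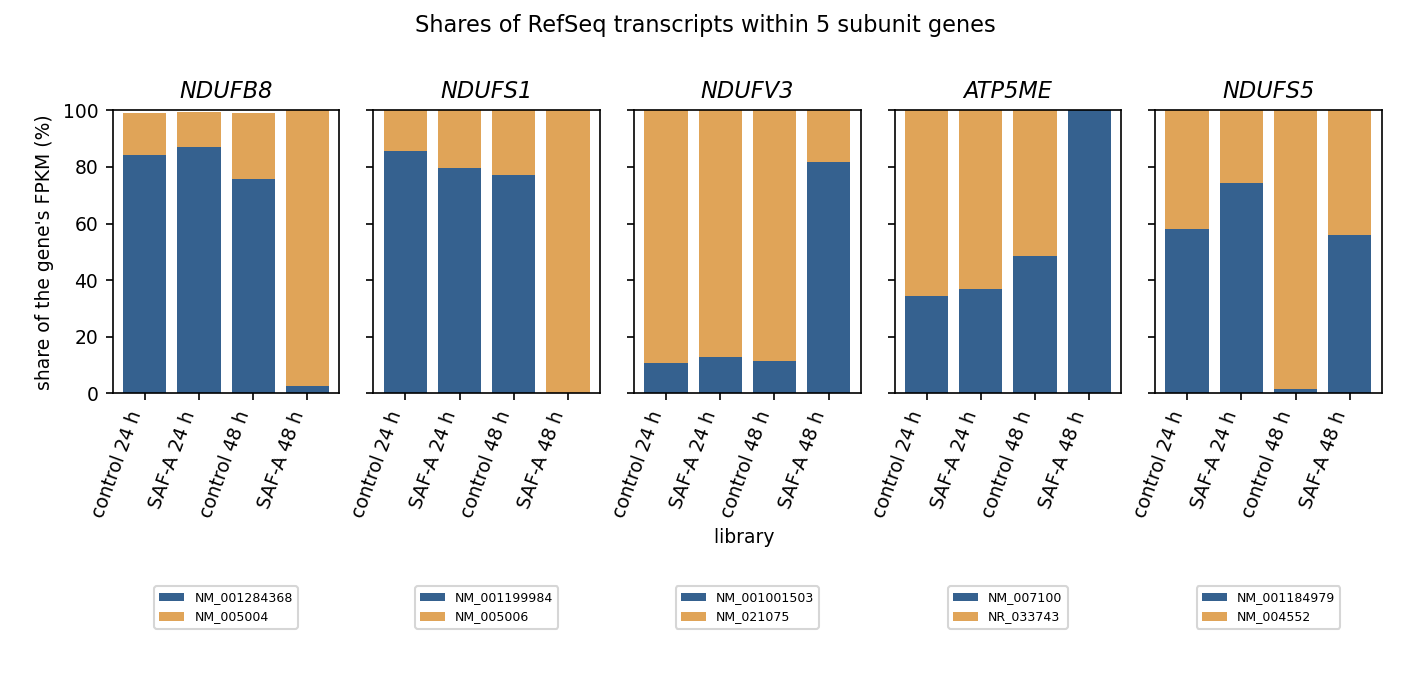
Share of each gene's FPKM (percent, stacked bars) held by its RefSeq transcripts in the 4 libraries, for 5 genes picked after their values were seen; transcripts under 5% in all libraries are left out. In NDUFB8, NDUFS1, NDUFV3 and ATP5ME the SAF-A 48 h bar differs from the others, and in NDUFS5 the control 48 h bar does, with NM_001184979 at 1.6%.

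Other genes of the pathway are given beside the 14.2% of all tested genes called higher and the 20.1% called lower at 48 h. Complex I assembly factors had a median of 0.27 at 48 h, with 3 higher and 3 lower of 14 (21.4% each). NDUFAF5, ACAD9 and NUBPL were higher (1.12, 1.17 and 1.42) and NDUFAF2, NDUFAF4 and NDUFAF8 lower (-1.09, -1.56 and -1.11). NUBPL was lowest in control 48 h, at 2.16, 4.22, 0.774 and 3.74 FPKM, with 13 estimated reads in SAF-A 48 h. The 3 lower ones rested there on 12.1, 7 and 17.2 reads. Assembly factors of complexes II to V had a median of -0.17, with 3 higher and 4 lower of 36 (8.33% and 11.1%); SURF1, a factor of complex IV, was highest at 1.60 and COA4 lowest at -2.21. Cytochrome c1 (CYC1), which belongs to complex III under another name, stood at 98.6, 89.9, 94.3 and 102 FPKM. CYCS, the soluble cytochrome c, stood at 41.5, 43.6, 38.3 and 11.6 FPKM and has 45 named pseudogenes.
Regulators of mitochondrial biogenesis had a median of -0.28 at 48 h, with 0 higher and 4 lower of 12 (33.3%). The lower ones were PPRC1, a coactivator (10.8, 8.04, 10.2 and 2.08 FPKM), ESRRA, POLRMT, the mitochondrial RNA polymerase, and TEFM. In SAF-A 48 h these rested on only 13, 20.6, 8 and 6 estimated reads, in that order. NRF1 stood at 2.31, 2.44, 2.36 and 3.23 FPKM, GABPA at 8.69, 10.4, 9.35 and 5.25, and YY1 at 29.7, 27.6, 32.6 and 29.2. GABPA shares up to 561 exonic bases on the opposite strand with ATP5PF, and the use of strand in counting is not given in the sources used here, so neither level is certain. Mitochondrially encoded subunits were not analysed here.

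Other large complexes had medians on both sides of that of the subunits at 48 h. Mitochondrial ribosomal proteins had a median of 0.34 (9 higher and 11 lower of 77, or 11.7% and 14.3%), cytosolic ribosomal proteins one of -0.57 (12 and 20 of 83, or 14.5% and 24.1%), and proteasome subunits one of 0.94 (16 and 3 of 38, or 42.1% and 7.89%). Over all tested genes 14.2% were higher and 20.1% lower, and the shares of both kinds of ribosomal proteins lay near these. Protein-coding genes in the central length range of the members had 22.1% higher and 16.8% lower, with a median of 0.15. Beside these, both kinds had fewer higher calls, and cytosolic ribosomal proteins had more lower calls. At 24 h the medians were -0.03, 0.15 and -0.01, next to 0.14 for the respiratory chain. Cytosolic ribosomal proteins thus lay close to the respiratory chain at 24 h and below it at 48 h, while proteasome subunits lay near control at 24 h and above it at 48 h. No difference between lists was tested.

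**Figure D5:**
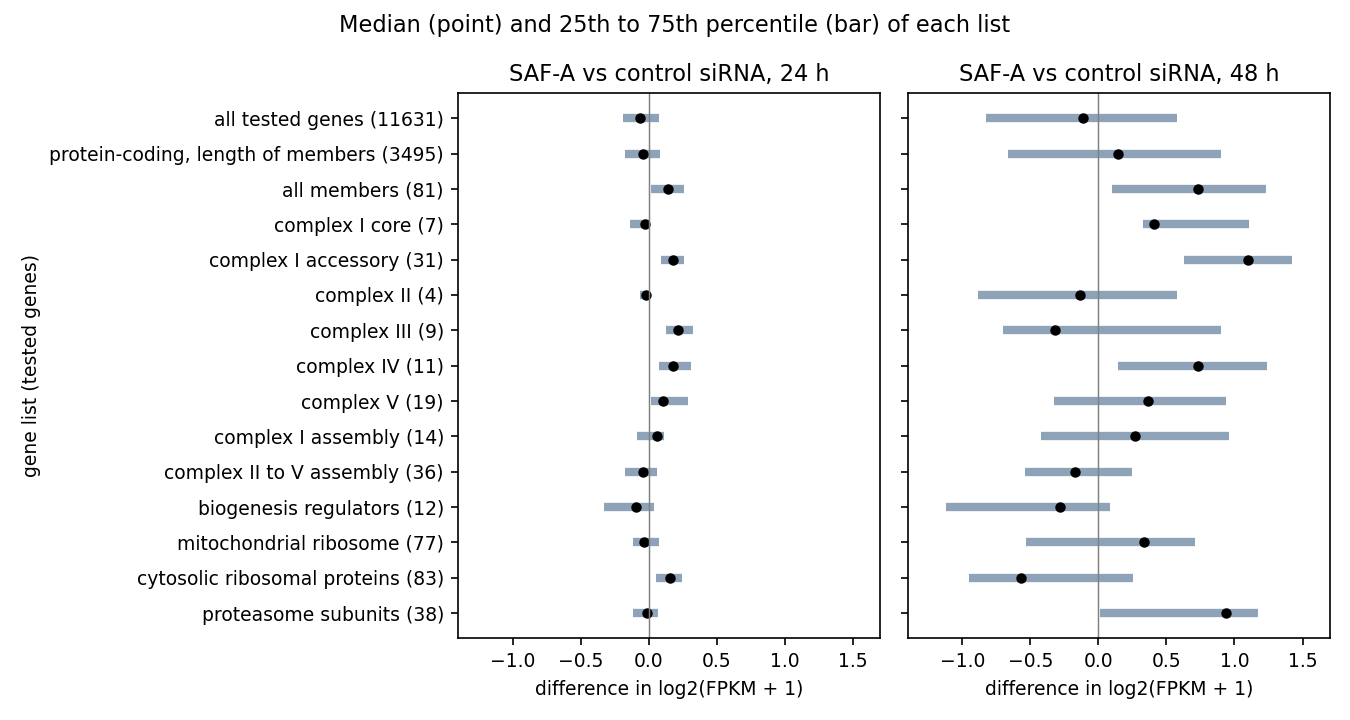
Median (point) and range from the 25th to the 75th percentile (bar) of the difference in log2(FPKM + 1) for SAF-A against control at 24 h (left) and 48 h (right), by gene list with the number of tested genes. At 24 h all medians lie between -0.09 and 0.21, and at 48 h they run from -0.57 for cytosolic ribosomal proteins to 1.10 for complex I accessory subunits.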

How the data were processed

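The authors deposited 1 gene table per library with FPKM values and their 95% bounds, per the file headers, and transcript files whose coverage attribute, also deposited by the authors, served only to derive depth. TopHat2 2.0.10, Bowtie2 2.1.0, Cufflinks 2.2.1 and hg19 are named in the submitters' processing notes. How reads with several placements were shared out is not given in the sources used here. Each of the 47338 rows is a RefSeq accession. Rows were joined to symbols through RefSeq (GRCh38.p14 for names; 97.1% matched), and FPKM and bounds were summed per symbol, which makes the bounds wider than a true interval. Differences are in log2(FPKM + 1), which understates low genes. Estimated reads are FPKM times effective length (fragments of 200 ± 80 nt, an assumed setting) times depth. All 4 comparisons were computed over the 11631 genes averaging 1 FPKM or more, in Python 3.11.15 with pandas 2.3.3, and the code was tested on simulated data. GC content came from GRCh37. Named members were the highest and lowest of each complex, the 10 largest rises and falls at 48 h with intervals apart, the 3 steadiest in each direction, catalytic subunits, paired isoforms and shifted transcripts; other genes named beside counts were chosen after their values were seen. Members and lists were chosen with earlier results of these data known. Alternatives covered the pseudocount, filters, scaling, fold, intervals and membership. Per the labels no condition was repeated, so there is no estimate of the spread between cultures. The values of 1 member are not reported here.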

Additional observations from a re-analysis of the deposited data

Results flagged for a closer look

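Several members lay on opposite sides of control at the 2 times, with changes of at least 1.25-fold each way, and none of these differences between times was tested. On the log2 scale ATP5F1D stood at -0.44 relative to control at 24 h and at 1.07 at 48 h. ATP5F1E stood at 0.45 and -0.72, UQCRH 0.40 and -0.70, and UQCRQ 0.33 and -0.37. The median of complex III was 0.21 at 24 h and -0.32 at 48 h. Each 48 h value uses the library with 1216740 reads, ATP5F1E overlaps SLMO2-ATP5E, and UQCRH has the near copy UQCRHL. At 48 h the intervals of ATP5F1D and UQCRQ overlapped those of control. Among the deep libraries control 24 h was the highest for ATP5F1D and the lowest for ATP5F1E, UQCRH and UQCRQ. The 24 h values thus depend on that library.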

How the results depend on the processing

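No paired analysis was possible because each condition had 1 library and the labels carry no shared replicate numbers. Over the alternatives, 138 values stayed within their limits (1.5 times for a count, 0.1 for a median log2 change), 21 moved and 1 reversed. The 24 h median of 0.14 became -0.035 when FPKM was rescaled to TPM over all rows; RNAs under 300 nt held 50.9% to 63.8% of the summed FPKM. Relative to the median of all tested genes, which that scaling moved from -0.06 to -0.22, the members stayed above by 0.19 against 0.20. At 48 h the median of 0.73 was 0.56 without a filter and 0.51 with TPM over rows of at least 300 nt. The median of all genes was -0.12 in the main setting, and 0 and -0.39 in these. The members stood above it by 0.85, and by 0.56 and 0.90. With the latter scaling the 48 h calls were 21 higher and 6 lower, against 31 and 4, which stayed within the limit for a count. Of all 12974 genes tested with it, 1337 were higher and 3960 lower, against 1655 and 2342 of 11631 in the main setting. At 1.5-fold the 24 h counts were 1 higher and 1 lower, the 48 h lower count 10, the control count 1 higher, the count of the SAF-A libraries 7 lower, and 2 members were called at both times. Restricted to the members with no named pseudogene, 48 h gave 13 higher and 0 lower and the SAF-A libraries 16 and 0. Between the SAF-A libraries the median of 0.91 was 0.67 without a filter, 1.13 with TPM over all rows (1 lower call), 0.71 with TPM over longer rows (23 higher calls) and 0.79 on estimated reads. Relative to the median of all genes the members stood above by 0.93, and in these settings by 0.67, 0.99, 0.97 and 0.83. Of all genes, 1629 of 11710 were lower with TPM over all rows, and 1494 of 12974 higher with TPM over longer rows. Transcript shifts numbered 7 at 48 h and 5 between the SAF-A libraries at a minimum of 20 FPKM, and 0 at 24 h for a shift of 0.5. The cause of the moves was not tested, except that fewer members or a lower threshold change counts by construction. Restricting the members and the use of estimated reads were chosen after seeing the data. Depth limits SAF-A 48 h most, with 2.51 to 956 estimated reads per tested member.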
